A study of Mus musculus with 24 samples.

Results

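The genes described here are a list of 44 genes of the cell division cycle and of DNA replication, of which 42 were measured in the intestine of Amacr-/- and wild-type mice. They were chosen by name, and each was read from its own probe set. Pcna and Ccnb1 were not analysed here. The product of Amacr is alpha-methylacyl-CoA racemase, which in peroxisomes and mitochondria turns branched fatty acids and the precursors of bile acids into the form that can be shortened further. The groups were Amacr-/- mice (KO) and wild-type mice (WT), all male, of the strain C57BL/6, 3 to 3.5 months old and with no treatment named in the labels. Each intestine had been divided into 4 segments of equal size, numbered 1 to 4 as in the labels, and a layer scraped from each opened segment gave RNA for 1 one-colour array. There were 3 arrays per genotype and segment, 24 in all, which the labels call biological replicates; whether arrays of one number come from one mouse is not stated. Values are on the log2 scale of RMA, a method that corrects the background, gives all arrays 1 distribution and joins the probes of a gene. Levels are compared between arrays for 1 gene and not between genes, since each probe set has its own brightness. All 15267 genes with 1 name were tested together with limma, and a gene is called changed where its Benjamini-Hochberg adjusted p was under 0.05.

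A dividing cell first prepares and copies its DNA and then separates the copies. In G1, Cdc6 and Cdt1 load the ring-shaped helicase made of Mcm2 to Mcm7 onto DNA, which licenses an origin; in S phase, Cdc45 and the Gins proteins complete that helicase, while ribonucleotide reductase (Rrm1 with Rrm2), Tyms and Tk1 supply nucleotides. In mitosis, cyclins with Cdk1, the Aurora kinases and Plk1 drive the assembly of the spindle, Bub1 and Bub1b hold anaphase back until every chromosome is attached, and Cdc20 with Ube2c sets the degradation of cyclins and securin going. In the intestinal epithelium, cells divide in the crypts and stop dividing as they move onto the villi. Among epithelial cells, these genes thus mark those of the crypts. Paneth cells, which secrete antimicrobial proteins, sit at the crypt base. The 42 genes were set in 19 replication genes (entry into S phase, licensing, firing and fork, nucleotide supply, chromatin copying) and 23 mitosis genes (cyclins and kinases, checkpoint and anaphase, centromere and chromosome, spindle and cytokinesis).

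The replication and mitosis genes also differ in the sequence in front of them, which the list of names did not use. E2F factors are known to act on promoters of replication genes, and the complexes known as DREAM and MMB on promoters of mitosis genes through an element called the cell cycle homology region; NF-Y binds CCAAT boxes in both. The 200 bases before the annotated start of 3 replication genes (Mcm5, Mcm6 and Rrm2) and 3 mitosis genes (Cdk1, Plk1 and Top2a) are shown as examples. All of them are among the genes named by rule, and they differ in which of the motifs they hold. The sequences come from RefSeq on the build GRCm38.p6, run 5′ to 3′ towards the start, and have the searched motifs in capitals on whichever strand they lie: TTTCCCGC, TTTCGCGC, TTTGCCGC or TTTGGCGC for an E2F site, TTTGAA for the cell cycle homology region and CCAAT for the CCAAT box.
Mcm5, chr8:75109309-75109508, plus strand: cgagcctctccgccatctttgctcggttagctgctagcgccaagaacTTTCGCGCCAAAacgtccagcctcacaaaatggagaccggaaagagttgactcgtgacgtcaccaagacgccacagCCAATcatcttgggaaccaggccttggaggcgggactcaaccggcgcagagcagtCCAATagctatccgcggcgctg
Mcm6, chr1:128359706-128359905, minus strand: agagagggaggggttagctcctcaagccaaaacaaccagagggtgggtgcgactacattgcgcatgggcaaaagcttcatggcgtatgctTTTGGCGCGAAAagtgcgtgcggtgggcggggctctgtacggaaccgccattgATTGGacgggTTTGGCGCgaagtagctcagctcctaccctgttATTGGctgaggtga
Rrm2, chr12:24708054-24708253, plus strand: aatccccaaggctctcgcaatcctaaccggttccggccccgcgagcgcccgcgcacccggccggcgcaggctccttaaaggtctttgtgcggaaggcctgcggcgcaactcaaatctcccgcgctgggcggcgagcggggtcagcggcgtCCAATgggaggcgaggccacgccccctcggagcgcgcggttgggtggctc
Cdk1, chr10:69352913-69353112, minus strand: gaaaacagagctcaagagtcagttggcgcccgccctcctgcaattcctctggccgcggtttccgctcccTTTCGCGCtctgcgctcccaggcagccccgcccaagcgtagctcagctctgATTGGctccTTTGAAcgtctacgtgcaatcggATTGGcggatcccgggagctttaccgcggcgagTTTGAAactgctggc
Plk1, chr7:122159235-122159434, plus strand: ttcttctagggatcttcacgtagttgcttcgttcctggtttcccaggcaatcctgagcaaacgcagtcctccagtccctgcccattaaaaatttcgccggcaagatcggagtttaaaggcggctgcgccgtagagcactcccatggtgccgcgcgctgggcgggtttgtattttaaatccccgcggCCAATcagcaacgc
Top2a, chr11:99024190-99024389, minus strand: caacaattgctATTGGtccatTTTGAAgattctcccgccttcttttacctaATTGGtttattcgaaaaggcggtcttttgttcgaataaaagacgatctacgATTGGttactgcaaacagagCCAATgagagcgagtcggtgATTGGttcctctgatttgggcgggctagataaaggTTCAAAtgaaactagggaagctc
In Mcm5 and in Mcm6, a pair of E2F sites on opposite strands overlap in 4 bases and form 1 run of capitals, and Mcm6 has a further site nearer the start. The printed stretch of Rrm2 holds a CCAAT box and none of the other motifs. Cdk1 has both an E2F site and the cell cycle homology region, the homology region in 2 places, and Top2a has the homology region once on each strand among 5 CCAAT boxes. In Plk1 the homology region begins 30 bases past the start, outside the printed stretch.

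Over promoters of 300 bases (250 before and 50 after the start), 34 of the 42 genes had an entry, and the motif content split by role. The entries missing were those of Mcm4, Gins1, Gins2, Ccna2, Aurkb, Foxm1, Kif20a and Tpx2. An E2F site was present in 7 of 16 replication promoters (43.8%) and in 1 of 18 mitosis promoters (5.56%), against 2.32% of all 27025 promoters in the table. The cell cycle homology region was present in 14 of 18 mitosis promoters (77.8%) and in 2 of 16 replication promoters (12.5%), against 18.1% of all. A CCAAT box was present in 16 of 18 mitosis promoters (88.9%) and 9 of 16 replication promoters (56.2%), against 37.9% of all. The E2F sites of the replication genes lay in 6 of 7 licensing promoters (Cdc6, Cdt1, Mcm3, Mcm5, Mcm6 and Mcm7) and in that of Hells. The replication promoters with the homology region were those of Mcm2 and Cdc45. Motifs were counted on both strands, a match is a description of the letters and not a bound site, and a promoter with no match may hold other forms of the element.

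The labels name the collected layer endothelial. All 7 markers of epithelium were measured and had values of 10.35 to 14.32 over the 24 arrays, while the 7 markers of vessel endothelium had values of 3.57 to 7.29. Amacr itself, the deleted gene, fell in KO arrays of every segment, with 5.34 ± 0.22 in KO and 8.42 ± 0.34 in WT arrays of segment 1 (mean ± SD, n = 3 each), a log2 difference of -3.08 (SE 0.19, adjusted p = 1.26e-08). The differences in segments 2, 3 and 4 were -2.84, -1.95 and -2.08. In 6 arrays the markers of exocrine pancreas, fat or smooth muscle, tissues that lie outside the mucosal epithelium, averaged over 1 log2 unit above their mean of all arrays. They were KO replicate 3 and WT replicate 1 of segment 1 (pancreas), KO replicates 1 and 3 and WT replicate 3 of segment 2 (fat or smooth muscle), and KO replicate 3 of segment 3 (fat). In bulk tissue, fewer cells of a type and less RNA per cell cannot be told apart, which holds for every difference given here.

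Cell cycle genes were highest in segment 4 of the intestine in both genotypes; which end the numbering starts from is not stated in the labels. Of the 42 genes, 40 had their highest mean in segment 4, and 34 rose in segment 4 against segment 1 with both genotypes averaged; 18.9% of all 15267 genes rose and 19% fell in that comparison. None of the 42 fell. The median over the 42 was 0.75 on the log2 scale, against 0.01 over all genes tested. By the test over all 4 segments, 36 of 42 differed among segments, against 38.8% of all genes. The most raised were Cdc20 with 1.88, Mki67 with 1.67, Ccna2 with 1.66, Top2a with 1.59 and Bub1 with 1.54, all mitosis genes. Without the 6 arrays with raised pancreas, fat or muscle markers, 34 genes were called, 33 of them among the 34 called with all arrays, and the median was 0.89; leaving out 1 replicate number of 1 genotype gave 31 to 35 genes.

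**Figure D1:**
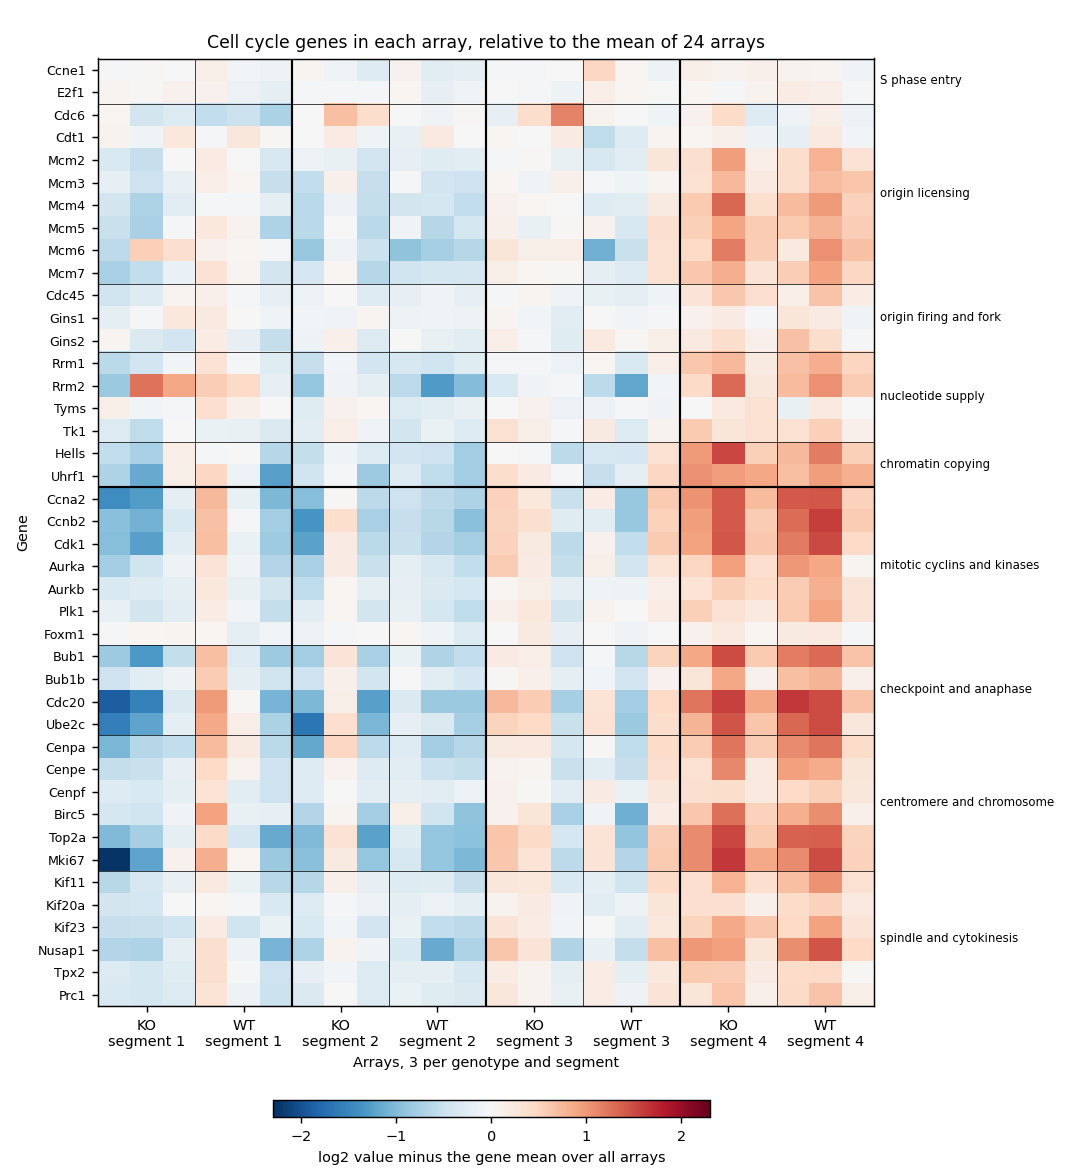
Heat map of the 42 genes (rows, by role) in the 24 arrays (columns, by segment, KO left of WT, 3 arrays each). Colour is the log2 value minus the gene's mean over all arrays, red above and blue below it; the 6 arrays of segment 4 are red for most genes, and single arrays of segments 1 to 3 stand above or below their group over most rows at once.

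Among the licensing genes, 6 of 8 rose in segment 4 against segment 1, all of them subunits of the Mcm helicase. Mcm4 had 7.20, 7.92 and 6.96 in the KO arrays of segment 4 and 7.32, 7.57 and 7.13 in the WT arrays of that segment. It had 6.17, 5.89 and 6.36 in the KO arrays of segment 1 and 6.57, 6.57 and 6.37 in the WT arrays of that segment, and all 6 values of segment 4 lay above all 6 of segment 1. It ranged from 5.98 to 6.46 in segment 2 and from 6.31 to 6.80 in segment 3. The difference for segment 4 minus 1 was 1.03 (SE 0.14, adjusted p = 4.9e-06), a 2.04-fold rise. Mcm5, with 0.94 (SE 0.17, adjusted p = 0.000165), and Mcm3, with 0.70 (SE 0.14, adjusted p = 0.000296), also had no overlap between the arrays of the 2 segments. The differences of Mcm7, Mcm2 and Mcm6 were 0.87, 0.68 and 0.63. The loading factors Cdc6 and Cdt1 had 0.43 (SE 0.17, adjusted p = 0.0509) and -0.08 (SE 0.11, adjusted p = 0.613), neither of them called.

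Of the 3 measured genes of origin firing, Cdc45 rose by 0.52 (SE 0.10) and Gins2 by 0.50 (SE 0.13), while Gins1 had 0.09 (SE 0.08, adjusted p = 0.42). Of the nucleotide supply genes, Rrm1, the large subunit of ribonucleotide reductase, rose by 0.79 (adjusted p = 4.91e-05) and Tk1, thymidine kinase of the salvage pathway, by 0.64 (adjusted p = 0.000138). The small subunit Rrm2 (0.38, adjusted p = 0.344) and thymidylate synthase, Tyms (0.02, adjusted p = 0.904), were not called. The S phase entry genes Ccne1 and E2f1 had differences of 0.08 and 0.07, not called. Their values spanned 5.90 to 6.66 for Ccne1 and 5.24 to 5.62 for E2f1 over the 24 arrays, a narrow range for both genes.

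The chromatin copying genes had the widest rises among the replication genes. Hells, a remodelling factor needed for DNA methylation of repeats, had 6.34, 6.89 and 5.91 in the KO arrays of segment 4 and 6.1, 6.53 and 5.90 in the WT arrays of that segment. In segment 1 it had 4.79, 4.60 and 5.51 in KO and 5.33, 5.34 and 4.70 in WT arrays, each below every value of segment 4. The difference was 1.23 (SE 0.20, adjusted p = 4.09e-05), a 2.35-fold rise. Uhrf1, which recognises hemimethylated DNA behind the fork, had 6.91, 6.81 and 6.75 in the KO arrays of segment 4 and 6.55, 6.81 and 6.67 in the WT arrays of that segment. Segment 1 held 5.14, 4.70 and 5.99 in KO and 6.33, 5.72 and 4.61 in WT arrays, all lower, and the difference was 1.34 (SE 0.25, adjusted p = 0.000202). The spread of Uhrf1 was narrower in segment 4, where 6 arrays lay within 6.55 to 6.91, while those of segment 1 covered 4.61 to 6.33.

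Of the mitosis genes, 22 of 23 rose in segment 4 against segment 1, with a median of 0.93. Mki67, a protein that coats mitotic chromosomes and the usual marker of dividing cells, had 5.99, 7.03 and 8.34 in the KO arrays of segment 1 and 9.07, 8.29 and 7.39 in the WT arrays of that segment. It had 7.27, 8.45 and 7.34 in KO and 7.86, 7.34 and 7.21 in WT arrays of segment 2. It had 8.86, 8.55 and 7.64 in KO and 8.53, 7.56 and 8.83 in WT arrays of segment 3. In segment 4, Mki67 had 9.33, 9.86 and 9.11 in KO and 9.32, 9.73 and 8.77 in WT arrays. Segment 4 thus held the 5 highest of the 24 values but overlapped with segment 1, where WT replicate 1 reached 9.07. The difference was 1.67 (SE 0.37, adjusted p = 0.00106), 3.18-fold.

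The cyclins and kinases rose together, with Ccna2, cyclin A2, at 1.66 (SE 0.31, adjusted p = 0.000216), Ccnb2 at 1.5 (SE 0.30, adjusted p = 0.000502) and their partner Cdk1 at 1.48 (SE 0.30, adjusted p = 0.000478). Cdk1 had 7.89, 8.39 and 7.58 in KO and 8.16, 8.49 and 7.40 in WT arrays of segment 4. It had 5.99, 5.72 and 6.72 in KO and 7.66, 6.82 and 6.15 in WT arrays of segment 1, of which 1 WT value lay inside the range of segment 4. Aurka, which acts at the spindle poles, rose by 0.93, Aurkb, of the chromosomal passenger complex, by 0.70 and Plk1 by 0.70. Plk1 had smaller steps but no overlap, with 7.15 to 7.84 in the 6 arrays of segment 4 against 6.38 to 7.10 in those of segment 1. Foxm1, a transcription factor that drives genes of G2 and mitosis, was the 1 mitosis gene not called, with 0.16 (SE 0.08, adjusted p = 0.116) and values of 5.60 to 6.15 in all arrays.

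All 4 checkpoint and anaphase genes rose, and they had the highest median of the role groups, 1.49. Cdc20, which activates the ubiquitin ligase that starts anaphase, had 8.47, 8.81 and 8.13 in the KO arrays of segment 4 and 8.86, 8.73 and 7.89 in the WT arrays of that segment. It had 5.35, 5.68 and 6.91 in the KO arrays of segment 1 and 8.21, 7.27 and 6.17 in the WT arrays of that segment, a difference for segment 4 minus 1 of 1.88 (SE 0.37, adjusted p = 0.000358) or 3.69-fold. Its segment 1 values covered 5.35 to 8.21, and WT replicate 1 of segment 1 alone, at 8.21, reached into the range of segment 4. Bub1 rose by 1.54, Ube2c by 1.44 and Bub1b by 0.63, with SE of 0.27, 0.36 and 0.18.

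All 6 centromere and chromosome genes and all 6 spindle and cytokinesis genes rose. Top2a, the topoisomerase that untangles sister chromosomes, had 7.45 to 8.46 in segment 4 and 5.77 to 7.37 in segment 1, with no overlap, and a difference of 1.59 (SE 0.33, adjusted p = 0.00054). Cenpa, the histone variant of centromeres, rose by 1.19, the kinetochore proteins Cenpe and Cenpf by 0.82 and 0.58, and Birc5, survivin, by 0.80. Kif23, a kinesin of the central spindle, had 5.59, 5.94 and 5.70 in KO and 5.54, 6.00 and 5.38 in WT arrays of segment 4. Its values in segment 1 were 4.54, 4.56 and 4.62 in KO and 5.26, 4.62 and 4.93 in WT arrays, all lower, and its difference was 0.94 (SE 0.13, adjusted p = 5.9e-06). Nusap1 rose by 1.27, Kif11, the motor that pushes spindle poles apart, by 0.91, Prc1 by 0.61, Tpx2 by 0.57 and Kif20a by 0.54. In all, 13 of the 42 genes had every segment 4 array above every segment 1 array, 7 of them replication and 6 mitosis genes, against 9.41% of all genes tested.

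**Figure D2:**
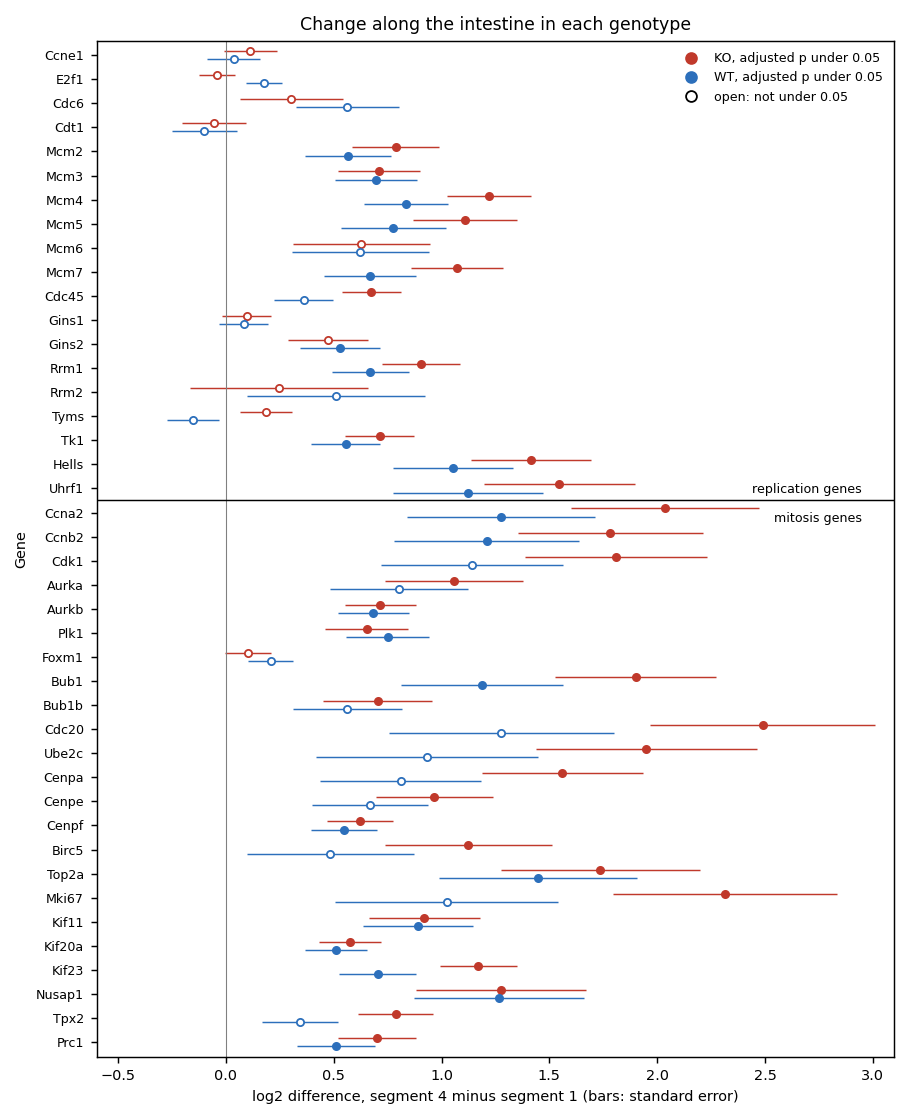
Log2 difference of segment 4 minus segment 1 (x axis) for each of the 42 genes (y axis, replication genes above the line, mitosis genes below it) in KO (red) and WT (blue) mice. Points are limma estimates, bars their standard errors, and filled points have an adjusted p under 0.05: 32 genes in KO and 22 in WT.

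The rise lay mostly between segments 3 and 4. There, 26 of 42 genes rose (11 replication and 15 mitosis genes) and the median was 0.60, against 6.11% of all genes. The largest of these steps were those of Cdc20 with 1.16 (SE 0.37, adjusted p = 0.0456), Rrm2 with 1.12 (SE 0.29, adjusted p = 0.0154) and Hells with 1.10 (SE 0.20, adjusted p = 0.000839), while Ccna2, Ccnb2 and Bub1 each rose by 1.07. Mcm2 rose by 0.59, Mcm5 by 0.65, Mcm6 by 0.81, Cdk1 by 0.97 and Plk1 by 0.46. Mki67 (1.03, adjusted p = 0.0762) and Top2a (0.97, adjusted p = 0.0587) missed the threshold in this step. The count was not stable to single replicates: it was 15, 9 and 14 without KO replicate 1, 2 and 3, and 12, 4 and 33 without WT replicate 1, 2 and 3. Between segments 2 and 3, 1 of 42 genes rose, Kif23 with 0.42 (SE 0.13, adjusted p = 0.0366), against 3.99% of all genes, and 41 of 42 differences were positive with a median of 0.30. The 8 genes named in each comparison ran from 0.16 (Mcm2) to 0.78 (Top2a), none called. The call of Kif23 was lost without any 1 of the KO replicates, without WT replicate 3 and without the 6 arrays with raised pancreas, fat or muscle markers.

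Between segments 1 and 2, 1 gene rose and 1 fell, against 3.36% and 3.65% of all genes. Cdc6 was 0.58 (SE 0.17, adjusted p = 0.0443) higher in segment 2. It had 5.50, 6.19 and 5.91 in KO and 5.50, 5.42 and 5.53 in WT arrays of segment 2, against 5.56, 5.09 and 5.19 in KO and 4.94, 5.02 and 4.78 in WT arrays of segment 1. The ranges overlapped in KO and not in WT arrays. Rrm2 fell by 1.03 (SE 0.29, adjusted p = 0.0365). It had 5.53, 6.34 and 6.20 in KO and 5.83, 5.13 and 5.43 in WT arrays of segment 2, against 5.57, 7.67 and 7.31 in KO and 7.0, 6.87 and 6.24 in WT arrays of segment 1. Neither call held without KO replicate 2 or without any 1 of the WT replicates, and without KO replicate 3 that of Cdc6 did. Without the 6 arrays with raised pancreas, fat or muscle markers the call of Rrm2 was lost and that of Cdc6 kept. Mcm6 ran parallel, with a difference of -0.70 (SE 0.22, adjusted p = 0.068), not called, and means of 7.02, 6.32, 6.83 and 7.64 in segments 1 to 4 (SD 0.39, 0.31, 0.58 and 0.36, n = 6 each). Rrm2 had means of 6.78, 5.74, 6.04 and 7.16 in the same order (SD 0.76, 0.47, 0.45 and 0.39).

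Over all 42 genes, the lowest mean was in segment 2 for 34, in segment 1 for 7 and in segment 3 for 1. The median difference of segment 2 minus 1 was small, -0.08, with 35 of 42 genes lower; the 8 genes named in each comparison were all lower, from -1.03 for Rrm2 to -0.07 for Mcm2, of which Rrm2 was called. The median was 0.23 without the 6 arrays with raised pancreas, fat or muscle markers, 3 of which are segment 2 arrays, so that the dip in segment 2 turns into a small rise in that fit. That fit rests on 1 KO array in segment 2.

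**Figure D3:**
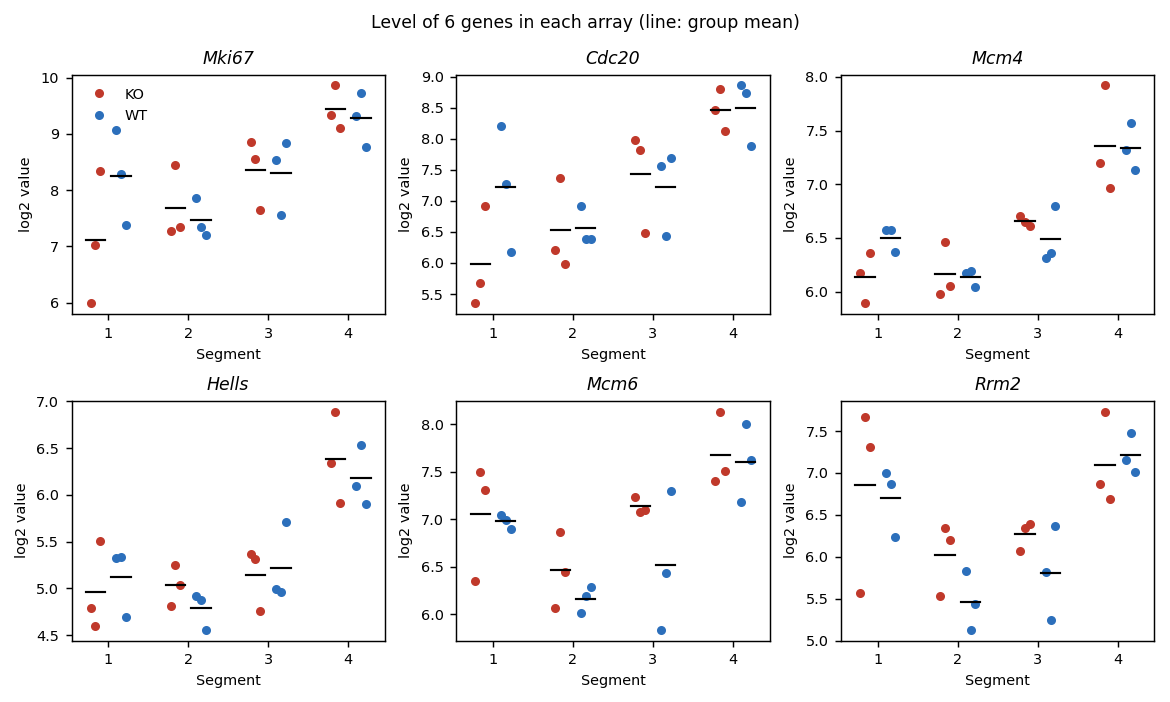
Log2 values of Mki67, Cdc20, Mcm4, Hells, Mcm6 and Rrm2 in each of the 24 arrays (points, KO red and left, WT blue and right; x axis, segment; black lines, group means of 3). All 6 genes have their lowest mean over both genotypes in segment 2 and their highest in segment 4.

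Both the replication and the mitosis genes had their highest mean in segment 4, in KO and in WT arrays. With each gene centred on its mean of all arrays, the 19 replication genes averaged 0.40, 0.67 and 0.26 in the KO and 0.37, 0.62 and 0.29 in the WT arrays of segment 4. They averaged -0.33, -0.28 and 0.04 in the KO and 0.14, -0.01 and -0.36 in the WT arrays of segment 1. The 23 mitosis genes averaged 0.64, 1.00 and 0.43 in KO and 0.88, 1.05 and 0.33 in WT arrays of segment 4, against -0.78, -0.69 and -0.22 in KO and 0.49, -0.11 and -0.63 in WT arrays of segment 1. The replication mean minus the mitosis mean was 0.48 lower in segment 4 than in segment 1, and 0.43 to 0.52 lower with 1 replicate number left out. In KO arrays it lay at -0.33 to -0.17 in segment 4 against 0.26 to 0.45 in segment 1, with no overlap. In WT arrays it lay at -0.51 to -0.04 against -0.34 to 0.26, with overlap. Outside segment 4 it was also low in single arrays with high means of both gene groups. WT replicate 1 of segment 1 had -0.34 and WT replicate 3 of segment 3 had -0.24. Whether the difference goes with the segment or with the height of both means was not tested. A score over genes chosen by name carries no test here. The share of called genes was 12 of 19 for replication and 22 of 23 for mitosis, and the 7 uncalled replication genes were Ccne1, E2f1, Cdc6, Cdt1, Gins1, Rrm2 and Tyms. Grouped by promoter letters, the 16 genes with the cell cycle homology region had a median rise of 0.93 and all 16 were called, while the 8 with an E2F site had 0.79 with 6 called and the 11 with neither 0.79 with 7 called. This grouping nearly repeats the roles, since 14 of the 16 are mitosis genes and 7 of the 8 are replication genes. Cdk1 is counted in both. Motif and role were not told apart.

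**Figure D4:**
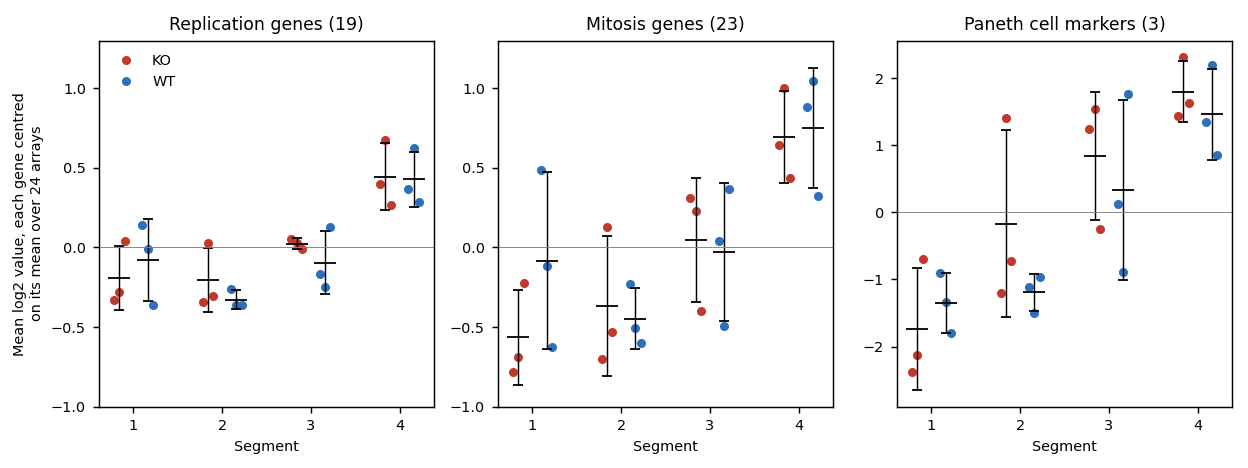
Mean over the 19 replication genes, the 23 mitosis genes and 3 Paneth cell markers in each array (points; KO red and left, WT blue and right) by segment, each gene centred on its mean of 24 arrays. Bars are the mean and SD of 3 arrays. Both gene groups are highest in segment 4. Within a group the same array is highest in all 3 panels in KO segments 1 (replicate 3), 2 and 4 (replicate 2). The same holds for WT segments 1 (replicate 1), 3 (replicate 3) and 4 (replicate 2).

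Markers of other cell types also moved between segments, and those of Paneth cells moved with these genes between the arrays of most groups. Of 7 listed Paneth cell markers, 3 were measured (Mmp7, Itln1 and Ang4), and all 3 rose in segment 4 against segment 1, by 2.53, 2.56 and 4.41. Their mean, centred on all arrays, was 1.44 to 2.31 in KO and 0.85 to 2.19 in WT arrays of segment 4. It was -2.38 to -0.70 in KO and -1.80 to -0.90 in WT arrays of segment 1. In KO arrays of segment 2, replicate 2 stood at 1.41 and the others at -1.20 and -0.72, and replicate 2 was the highest of the 3 for 37 of the 42 cell cycle genes. In WT arrays of segment 3, replicate 3 stood at 1.77 and the others at 0.12 and -0.88, and replicate 3 was the highest for 34 of 42. In segment 1 the array highest in both was KO replicate 3 at -0.70 (35 genes) and WT replicate 1 at -0.90 (38 genes). In segment 4 it was replicate 2, at 2.31 in KO (33 genes) and 2.19 in WT (35 genes). KO replicate 3 of segment 3 was lowest in both, at -0.25 (35 genes). WT segment 2 differed, since replicate 3 had the highest marker mean, -0.96, and was the lowest for 24 genes. With the Paneth marker mean as a covariate, a fit added after the data were seen, 0 of 42 genes were called for segment 4 against 1 and the median was 0.01, while 2371 of all genes were called. The marker mean itself differs by segment, so segment and marker level cannot be told apart in that fit.

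Of 9 listed B cell and germinal centre markers, 6 were measured and 3 rose in segment 4 against segment 1. Their mean was -0.21 to 1.06 in KO and 0.46 to 1.45 in WT arrays of segment 4, against -0.66 to -0.18 in KO and -0.57 to 0.26 in WT arrays of segment 1. With that mean as a covariate, also a fit added after the data were seen, 34 cell cycle genes were called and the median was 0.82. The B cell marker mean differs by segment as well, so segment and marker level cannot be told apart in this fit either. Of 7 listed enterocyte markers, genes of the non-dividing absorptive cells, 6 were measured and 4 fell. Those that fell were Fabp1 (-3.63), Lct (-2.50), Alpi (-1.23) and Slc5a1 (-0.23), while Apoa1 (-0.065) and Krt20 (0.10) were not called. The mean of the 6 was -1.27 to -0.84 in KO and -1.26 to -0.10 in WT arrays of segment 4, against 0.40 to 0.46 in KO and 0.21 to 0.40 in WT arrays of segment 1. Of 8 listed crypt stem cell markers, 7 were measured, 4 rose and 1 fell. Those that rose were Axin2 (1.15), Smoc2 (0.54), Sox9 (0.455) and Lgr5, a receptor of crypt base stem cells, with 0.46 (SE 0.13, adjusted p = 0.00985). Ascl2, a transcription factor of the same cells, had 0.09 (SE 0.06, adjusted p = 0.271). Rnf43 fell (-1.27, adjusted p = 2.98e-05), and Tnfrsf19 (0.06) was not called. The mean of the 7 was 0.11 to 0.29 in KO and 0.02 to 0.20 in WT arrays of segment 4. It was -0.15 to 0.04 in KO and -0.24 to 0.03 in WT arrays of segment 1. Other lists moved as well in segment 4 against segment 1. All 6 measured goblet cell markers, of 7 listed, rose with a median of 0.71, and their mean was 0.34 to 0.46 in KO and 0.34 to 0.45 in WT arrays of segment 4, against -0.38 to -0.32 in KO and -0.51 to -0.32 in WT arrays of segment 1. All 7 epithelium markers rose with a median of 0.56, and their mean was 0.41 to 0.43 in KO and 0.23 to 0.37 in WT arrays of segment 4, against -0.39 to -0.24 in KO and -0.35 to -0.23 in WT arrays of segment 1. Of 7 measured T cell and intraepithelial lymphocyte markers, of 8 listed, 6 fell, with a median of -1.17 over the 7. Their mean was -0.92 to -0.21 in KO and -0.61 to -0.05 in WT arrays of segment 4, against 0.53 to 0.84 in KO and 0.63 to 0.72 in WT arrays of segment 1. Of 7 enteroendocrine markers 4 fell, with a median of -0.99 over the 7. Those that fell were Cck (-2.99), Gip (-2.885), Tph1 (-1.97) and Chgb (-0.985), while Neurod1 (-0.27), Chga (-0.02) and Sct (0.095) were not called. The mean of the 7 was -0.95 to -0.64 in KO and -0.82 to -0.34 in WT arrays of segment 4, against 0.53 to 0.65 in KO and 0.31 to 0.71 in WT arrays of segment 1. Of 6 measured exocrine pancreas markers 2 fell, with a median of -0.88 over the 6. Their mean was -0.38 to -0.20 in KO and -0.28 to -0.19 in WT arrays of segment 4. In segment 1 it was 2.97 in WT replicate 1 and 1.32 in KO replicate 3, and -0.27 to -0.001 in the other arrays. The part of these lists, and of the enterocyte and stem cell markers, in the rise of the cell cycle genes was not tested.

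In segment 1, KO arrays tended to lower values than WT arrays, but no gene passed the test. Of 42 genes, 0 were called with limma, against 0.111% of all genes. An unadjusted p under 0.05 was found for 6 of 42 and for 1740 of all 15267 genes. The median difference was -0.25, against 0.01 over all genes, with 36 of 42 lower in KO. Among replication genes the median was -0.16 (14 of 19 lower) and among mitosis genes -0.30 (22 of 23 lower). The lowest were Cdc20 with -1.24 (SE 0.52, adjusted p = 0.375), Mki67 with -1.13 (SE 0.52, adjusted p = 0.417) and Ube2c with -1.09 (SE 0.51, adjusted p = 0.428). The highest were Cdc6 with 0.37 (SE 0.24, adjusted p = 0.575), Rrm2 with 0.15 (SE 0.41, adjusted p = 0.93) and E2f1 with 0.14 (SE 0.08, adjusted p = 0.543). The other genes named in each comparison had differences of -0.73 for Cdk1, -0.30 for Top2a, -0.30 for Mcm5, -0.24 for Mcm2, -0.14 for Plk1 and 0.08 for Mcm6.

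Single arrays decided the size of that median. The WT replicate 1 array was alone the highest of its 3 for 38 of 42 genes and the WT replicate 3 array the lowest for 39. In the WT replicate 1 array the exocrine pancreas markers lay 2.97 above their mean of all arrays, and the Paneth marker mean, -0.90, was the highest of its 3. Without WT replicate 1 the median was -0.06, and without WT replicate 3 it was -0.43. Without the 6 arrays with raised pancreas, fat or muscle markers, which removes KO replicate 3 and WT replicate 1 here, it was -0.21. For Mcm4 all 3 KO arrays (6.17, 5.89 and 6.36) lay below all 3 WT arrays (6.57, 6.57 and 6.37), the 1 gene of 42 with such a gap, against 8.67% of all genes. Its difference was -0.36 (SE 0.19, adjusted p = 0.488).

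Markers of other cells were also unequal between KO and WT arrays of segment 1, with 0 of them called. Of 6 measured exocrine pancreas markers all 6 were lower in KO (median -0.52), with a mean of -0.18 to 1.32 in KO and -0.27 to 2.97 in WT arrays. All 3 Paneth cell markers were lower in KO (median -0.27), as were 5 of 6 B cell and germinal centre markers (median -0.15). Their ranges over the arrays, given above, overlapped between the genotypes. Of 5 plasma cell markers 4 were lower in KO (median -0.33), with a mean of -0.41 to -0.08 in KO and 0.07 to 0.18 in WT arrays. Of 5 measured macrophage and dendritic cell markers 4 were lower in KO (median -0.22). Their mean was -0.24 to -0.02 in KO and -0.005 to 0.22 in WT arrays, with no overlap. All 7 smooth muscle markers were higher in KO (median 0.32), with a mean of -0.32 to 0.28 in KO and -0.49 to -0.44 in WT arrays, and all 6 measured enterocyte markers were higher (median 0.10). The part of these lists in the difference of the cell cycle genes was not tested.

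In the other segments the median difference between KO and WT was within 0.07 of 0. In segment 2 it was 0.07 with 0 genes called (0.0721% of all genes called). There 0 of 42 had an unadjusted p under 0.05, against 1040 of all 15267 genes. The highest differences were those of Rrm2 (0.56), Nusap1 (0.50) and Cdc6 (0.38), and the lowest those of Ube2c (-0.35), Birc5 (-0.06) and Bub1b (-0.05), with adjusted p of 0.824 or more for all 42; the 8 genes named in each comparison ran from -0.03 (Mcm5) to 0.56 (Rrm2). The median was 0.36 without the 6 arrays with raised markers, which leaves 1 KO array in this segment, and -0.07 without KO replicate 2. In segment 3 it was 0.07 with 0 called (0.0262% of all). There 1 of 42 had an unadjusted p under 0.05, against 1243 of all genes. Mcm6 (0.61), Rrm2 (0.46) and Cdc6 (0.45) were highest, and Gins2 (-0.17), Ccne1 (-0.15) and Cenpf (-0.14) lowest, with adjusted p of 0.585 or more, and the 8 ran from -0.10 (Plk1) to 0.61 (Mcm6). Leaving out 1 array at a time moved that median between -0.13 (without WT replicate 2) and 0.25 (without WT replicate 3). Mcm6 had 7.23, 7.08 and 7.10 in the KO arrays of segment 3 and 5.84, 6.43 and 7.30 in the WT arrays of that segment, and the groups overlapped through WT replicate 3.

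In segment 4 the median was -0.05 with 0 called (0.0655% of all). There 0 of 42 had an unadjusted p under 0.05, against 748 of all genes. Differences ran from -0.26 for Nusap1, -0.23 for Plk1 and -0.17 for Ccnb2 to 0.20 for Hells, 0.18 for Tyms and 0.16 for Mki67. The median was -0.20 without KO replicate 2 and 0.09 without KO replicate 3. Averaged over the 4 segments, with arrays of one number and genotype averaged to 3 KO and 3 WT means, 0 of 42 genes were called (0.0262% of all). An unadjusted p under 0.05 was found for 1 of 42 and for 1190 of all genes. The median was -0.05 (0.02 without WT replicate 1). Cdc6 was the highest there with 0.33 (SE 0.08, adjusted p = 0.375), followed by Mcm6 (0.27) and Rrm2 (0.26). Cdc6 and Rrm2 were among the 3 highest differences in segments 1, 2 and 3 alike, none of them called. Ube2c (-0.33), Cdc20 (-0.27) and Cenpa (-0.20) were lowest. Cdk1 had -0.18, Mki67 -0.18, Mcm5 -0.08, Plk1 -0.08, Mcm2 -0.05 and Top2a 0.00.

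**Figure D5:**
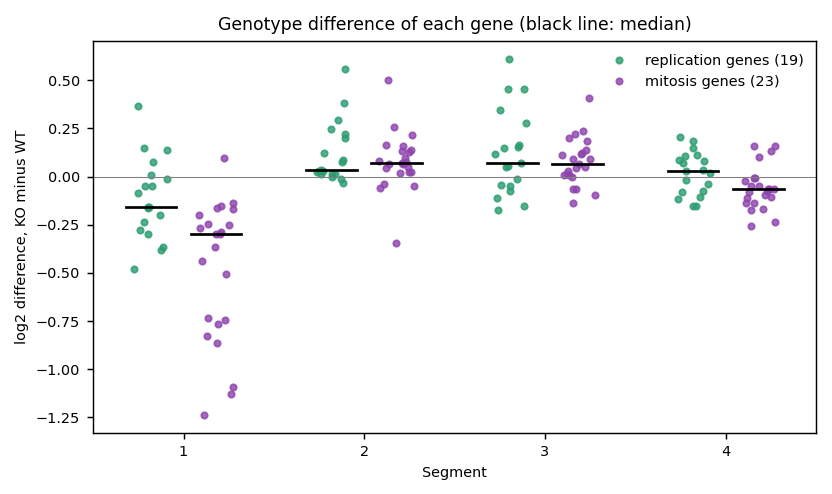
Log2 difference KO minus WT for each gene (points) in each segment (x axis), replication genes in green and mitosis genes in purple, with medians as black lines. The medians are -0.16 and -0.30 in segment 1, 0.03 and 0.07 in segment 2, 0.07 and 0.06 in segment 3, and 0.03 and -0.07 in segment 4.

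Taken in each genotype alone, 32 of 42 genes rose in segment 4 against segment 1 in KO mice (15.4% of all genes rose) and 22 of 42 in WT mice (10% of all). The genes called were shared for 21, called in KO mice alone for 11, called in WT mice alone for 1 (Gins2) and called in neither for 9. The median rise was 0.85 in KO and 0.67 in WT mice, and the KO value was above the WT value for 36 of 42 genes. Mki67 had 2.31 (SE 0.52, adjusted p = 0.00183) in KO and 1.02 (SE 0.52, adjusted p = 0.175) in WT mice. Cdc20 had 2.49 (SE 0.52, adjusted p = 0.00102) in KO and 1.28 (SE 0.52, adjusted p = 0.0859) in WT mice, while Top2a, with 1.74 in KO and 1.45 in WT mice, was called in both. Cdk1 had 1.81 in KO and 1.14 in WT mice, and Plk1 0.65 in KO and 0.75 in WT mice. Among replication genes, Mcm5 had 1.11 in KO and 0.78 in WT mice, Mcm2 0.79 in KO and 0.57 in WT mice, Mcm6 0.63 in KO and 0.62 in WT mice and Rrm2 0.25 in KO and 0.51 in WT mice. The test of whether the genotype difference varies by segment called 0 of 42 genes and 0 of all genes (0%) with limma, with 0 of 42 and 907 of all at an unadjusted p under 0.05, so these counts are not shown to differ between the genotypes. The WT count was 0 without WT replicate 2, 7 without WT replicate 3, 20 without WT replicate 1 and 33 without the 6 arrays with raised pancreas, fat or muscle markers. The KO count was 17 without KO replicate 2 and 22 without KO replicate 1.

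Other genes of the cycle, 151 listed and 141 measured, moved with the 42. In segment 4 against segment 1, 84 rose and 10 fell, with a median of 0.38, against 18.9% and 19% of all genes. Of 59 other mitosis genes 46 rose and 2 fell, with Ect2, which directs the cleavage furrow, at 1.86, Cks1b, a small partner of cyclin-dependent kinases, at 1.64 and Melk, a kinase, at 1.62. Of 28 other fork and nucleotide genes 13 rose and 1 fell, and of 17 other licensing and firing genes 7 rose and 2 fell, and among those that fell was geminin, Gmnn, the inhibitor of Cdt1, with -0.49 (SE 0.09, adjusted p = 0.000126). Of 14 other regulators of G1 and S 10 rose and 2 fell, and cyclin D1, Ccnd1, which starts the passage through G1, had the largest rise of all 141 with 2.33 (SE 0.36, adjusted p = 2.84e-05), 5.02-fold. Of 14 brakes of the cycle 3 rose and 3 fell: the inhibitor Cdkn2b rose by 1.65 (adjusted p = 1.74e-11), while the inhibitor Cdkn1c fell by 0.85 (adjusted p = 2.79e-07) and Wee1, the kinase that holds Cdk1 inactive, by 0.75 (adjusted p = 0.00147). The mitosis genes that fell were Cenpl, by 0.65, and Hjurp, the chaperone of Cenpa, by 0.56. Of 9 genes of S phase repair and checkpoint 5 rose. In each genotype comparison 0 of the 141 were called, and their median difference was -0.16 in segment 1.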

How the data were processed

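RNA of 24 intestinal samples had been biotin-labelled and hybridised to one-colour arrays, per the labels' protocols. The authors deposited log2 expression values per probe set, and the submitters' processing notes name RMA, with no version in the sources used here; the log base was read from the range of the values, 2.92 to 14.74. Values carry 2 decimals, array medians were 6.06 to 6.16, and arrays of 1 group correlated at 0.979 to 0.995. No scanner background was used here, so low values have no test of detection, and the number of arrays limits the precision.

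Of 16556 probe sets, 15270 name 1 gene. A gene with several was read from its brighter probe set, giving 15267 genes. One limma model (limma 3.58.1, R 4.3.3) over the 8 groups of 3 arrays, with 16 residual degrees of freedom, gave all contrasts but that over the whole intestine, which was fitted on means of the 4 segments per genotype and number, with no covariate and no replicate block, and Benjamini-Hochberg adjustment ran over all genes. The model was tested on simulated data with changes of known size. Of log2 changes of 0.5 and 1, it recovered 58.2% and 89.6% for KO minus WT in segment 1. For segment 4 against 1 it recovered 83.6% and 98.5%, and for the genotype difference that varies by segment 26.9% and 65.7%. The simulated arrays were independent, so arrays sharing a mouse were not covered. The labels call the 3 arrays of a group biological replicates. The labels do not say which arrays come from 1 mouse, so p-values measure the spread between these arrays.

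The members, roles and marker lists were chosen with earlier results of these data known. Genes named by rule were Amacr, Mki67, Top2a, Mcm2, Mcm5, Mcm6, Rrm2, Cdk1 and Plk1, up to 12 called genes with the largest change in each direction, or the 3 largest in each direction where none was called, and up to 5 called genes per direction of the other cycle genes. In the genotype comparisons of segments 2 to 4 and the first steps between segments, the always named genes are given by their range. Other members are named by role, and were chosen after their values were seen. Promoter sequences are from RefSeq, GRCm38.p6; of duplicate entries the first was used. Alternatives were array centring, repeated quantile normalization, a filter on dim genes, eBayes with trend, replicate blocks, single segments, arrays left out and, chosen after seeing the data, marker means as covariates.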

Additional observations from a re-analysis of the deposited data

How the results depend on the processing

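With 3 arrays per group, single arrays moved many counts. No cell cycle gene was called between genotypes under any alternative run, and segment 4 against 1 gave 31 to 35 called cell cycle genes, 30 to 34 of them among the 34 of the full data, except in the fits with the Paneth marker mean. Over refits of single named genes, 1314 kept direction and side of the threshold, 113 lost the call, 9 gained it and 29 changed sign. The cause of the changes below was not tested.

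Without the 6 arrays high in pancreas, fat or muscle markers, all genes called between KO and WT numbered 5 in segment 1 (17 with all arrays), 6 in segment 4 (10) and 7 over the whole intestine (4). The median of the 42 genes was then 0.36 for KO minus WT in segment 2 and 0.23 for segment 2 minus 1. Cell cycle genes called were 1 for segment 2 against 1 and 0 for segment 3 against 2, with 487 and 443 of all genes. Uncalled differences KO minus WT that changed sign were Mcm6 at -0.02 and Plk1 at 0.015 in segment 1, and Ube2c at 0.655, Birc5 at 0.225 and Bub1b at 0.24 in segment 2. A second quantile normalization called 8 of all genes in segment 1. Keeping genes with a mean of at least 5 called 17 of all genes in segment 2 and 2 cell cycle genes for segment 3 against 2. Fits on the arrays of 1 segment called 3, 1, 0 and 3 of all genes between KO and WT in segments 1 to 4.

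With the Paneth marker mean as a covariate, chosen after seeing the data, cell cycle genes called for segment 4 against 1 were 0 in KO, 0 in WT and 0 in both together, with medians of 0.056, -0.020 and 0.0096. The counts were 7 for segment 4 against 3 and 21 for the test over 4 segments. All genes called were 1555 in KO, 2244 in WT, 2371 in both, 1063 for segment 4 against 3 and 3171 over 4 segments. With B cell and Paneth marker means together, cell cycle genes called were 0 in KO, 0 in WT, 0 in both, 1 for segment 4 against 3 and 19 over 4 segments. Medians were -0.18 in KO, -0.23 in WT, -0.21 in both and 0.22 for segment 4 against 3, and all genes called were 954, 1356, 1329 and 619, with 2416 over 4 segments.

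Whether a replicate number marks a pairing of samples is not stated in the labels and was not settled by the values, so no pairing was used: deviations of arrays of the same genotype and number correlated at -0.286 to 0.521 over 36 pairs of segments (15 over 0.1), with 0.387 to 0.521 for the 6 pairs of WT replicate 1, and those of the same number and segment at -0.242 to 0.293 over 12 pairs (2 over 0.1). With the number as a fixed replicate block, all genes called between KO and WT were 26, 25 and 16 in segments 1, 2 and 4 and 0 over the whole intestine. With genotype and number as a random block, 109 of all genes were called over the whole intestine and 2 cell cycle genes for segment 3 against 2. For segment 4 against 1 the blocks gave 35 (random) and 34 (fixed) cell cycle genes.

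Leaving out 1 replicate number of 1 genotype gave 2 to 32 of all genes called between KO and WT in segment 1, 3 to 28 in segment 2, 2 to 10 in segment 3, 3 to 17 in segment 4 and 1 to 4 over the whole intestine, and 0 to 3 for the difference that varies by segment. Cell cycle genes called for segment 4 against 1 were 17 to 32 in KO and 0 to 20 in WT, with 2985 to 4000 and 2019 to 2834 of all genes. Steps between segments gave 0 to 2 (2 against 1), 0 to 2 (3 against 2) and 4 to 33 (4 against 3), with 481 to 881, 871 to 1435 and 809 to 2240 of all genes. Uncalled differences KO minus WT that changed sign in segment 1 ran from -0.69 to 0.11 for Top2a, -0.15 to 0.43 for Mcm6, -0.26 to 0.79 for Rrm2 and -0.34 to 0.023 for Plk1. In segment 2 they were Ube2c at -0.93 to 0.095, Birc5 at -0.325 to 0.22 and Bub1b at -0.24 to 0.058, and in segment 3 Ccne1 at -0.28 to 0.015. In segment 4 they were Hells at -0.052 to 0.44, Mki67 at -0.092 to 0.39 and Ccnb2 at -0.46 to 0.048. Over the whole intestine they were Mki67 at -0.34 to 0.0075, Mcm5 at -0.13 to 0.00125 and Plk1 at -0.18 to 0.019, and Rrm2 in segment 4 minus 1 of KO ran from -0.28 to 0.68. No detection values were used here, so what low signals limit was not measured.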
